A study of Mus musculus with 3 samples.

Results

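The nuclei described here are brown adipocyte nuclei that were high in 4 genes of fatty acid synthesis. They were selected on their measured counts of Acly, Fasn, Acaca and Elovl6. A barcode entered the ranking with 2000 to 6000 UMIs (unique molecular identifiers, which count captured RNA molecules once each) and fewer than 3 UMIs summed over Flt1, Ptprb, Pdgfra, Dcn, Mrc1, F13a1, Abcc9 and Trpc6, which mark endothelial cells, fibroblasts, macrophages and pericytes. This left 16067 nuclei of 30000 barcodes. The score of a nucleus was the share of its UMIs that fell on the 4 genes. In each library, nuclei at or above the 90th percentile of the score are called high nuclei, and nuclei at or below the 50th percentile are called low nuclei. There were 1608 high nuclei, with 633 at 2 months, 609 at 12 months and 366 at 24 months, and 8034 low nuclei.

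The nuclei came from brown adipose tissue of the interscapular depot (iBAT), which lies between the shoulder blades, of wild type mice, which were male. The groups were 2, 12 and 24 months of age, with 1 droplet library per age and no treatment. The tissue came from 4 mice per the methods, their division among the libraries is not stated, and with 1 library per age there is no replicate and no test between ages. Nuclei were freed by Dounce homogenization and sorted, each library was forced to 10000 barcodes by the authors, and the libraries summed to 28977002, 45819738 and 37135296 UMIs.

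De novo lipogenesis makes fatty acids from glucose carbon. Citrate leaves the mitochondrion, ATP citrate lyase (Acly) splits it into cytosolic acetyl-CoA, acetyl-CoA carboxylase 1 (Acaca) makes malonyl-CoA, fatty acid synthase (Fasn) builds palmitate, and Elovl6 lengthens palmitate to stearate. In brown fat the pathway is known to run beside fatty acid oxidation, and its genes are targets of the transcription factors ChREBP (Mlxipl) and SREBP-1 (Srebf1).

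In the mm10 annotation Acly lies at chr11:100476353-100528000 and Fasn at chr11:120805846-120824547, both on the minus strand, Acaca at chr11:84129672-84401651 and Elovl6 at chr3:129532355-129638495, both on the plus strand. To show the regulatory sequence of genes whose RNA went with the score, the 250 bases before the RefSeq start (GRCm38.p6) of 2 score genes and of Acss2, which was not used in the score, are printed from 5′ to 3′ on the strand of the gene. They cover chr11:100528001-100528250 (minus strand), chr11:120824548-120824797 (minus strand) and chr2:155517793-155518042 (plus strand). Capitals mark CCAAT boxes (CCAAT or ATTGG) and GC boxes (GGGCGG or CCGCCC), the letters bound by NF-Y and by Sp1-type factors.
Acly: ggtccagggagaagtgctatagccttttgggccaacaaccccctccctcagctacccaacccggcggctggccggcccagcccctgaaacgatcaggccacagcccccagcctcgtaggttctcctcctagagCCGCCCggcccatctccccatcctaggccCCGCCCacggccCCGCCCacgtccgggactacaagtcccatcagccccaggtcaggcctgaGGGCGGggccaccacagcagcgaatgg
Fasn: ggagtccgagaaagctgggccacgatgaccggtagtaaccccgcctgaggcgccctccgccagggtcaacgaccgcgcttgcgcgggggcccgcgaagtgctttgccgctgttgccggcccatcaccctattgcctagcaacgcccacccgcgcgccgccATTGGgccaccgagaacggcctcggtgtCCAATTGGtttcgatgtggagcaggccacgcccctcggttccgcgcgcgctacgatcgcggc
Acss2: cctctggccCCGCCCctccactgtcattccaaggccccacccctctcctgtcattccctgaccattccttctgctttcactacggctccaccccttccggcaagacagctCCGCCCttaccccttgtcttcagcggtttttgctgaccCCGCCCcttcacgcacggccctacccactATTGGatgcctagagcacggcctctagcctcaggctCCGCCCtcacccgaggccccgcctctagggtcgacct

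Such windows were found for 17 of the 18 other fat synthesis enzymes measured here. A gene with more than 1 RefSeq start counted if any of its windows held the motif. For Me1 the CCAAT box stood in the window at chr9:86687278-86687527 and not in that at chr9:86695915-86696164. A CCAAT box stood in 12 of the 17 (70.6%) and in 39.9% of the 4484 measured genes with a window. Of the 4 score genes, Fasn alone held a CCAAT box and Acly alone a GC box, and the windows of Acaca and Elovl6 held none of the motifs searched. The Acaca window, at chr11:84195188-84195437, lies inside the annotated gene, so the bases before the annotated gene were not searched for Acaca. GC boxes stood in 14 of the 17 (82.4%) and in 69.1% of measured genes. The E-box CACGTG stood in 2 of the 17 and the sterol element core TCACNCCA also in 2, against 10.4% and 4.28% of measured genes. Both strands were searched, and a match is a description of the letters.

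The score spread far more widely in the older libraries. Its median was 0.766, 0.384 and 0.833% of a nucleus's UMIs at 2, 12 and 24 months, in that order, and its 90th percentile was 1.24, 1.50 and 1.78%. The 90th percentile was 3.10, 11.2 and 8.09 times the 10th. Across nuclei the variance of the summed score UMIs was 4.91, 20.3 and 16.9 times what counting alone gives at each nucleus's depth. The 12-month nuclei piled up at low scores with a long tail to high ones, while the 2-month nuclei formed a single hump. The cut is a point on this continuum: 669, 440 and 350 nuclei scored within 10% of it, and the lowest high nucleus scored 1.24017, 1.49722 and 1.7823% against 1.23995, 1.49646 and 1.77917% for the nucleus just outside.

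**Figure D1:**
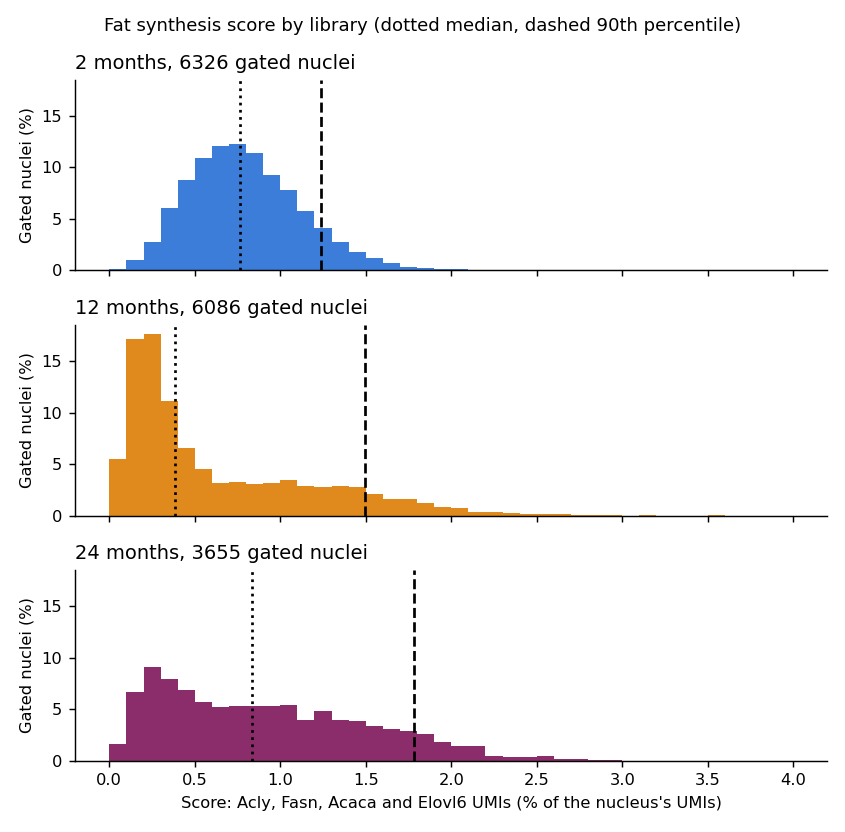
Distribution of the fat synthesis score over gated nuclei of each library, in bins of 0.1% of UMIs (x axis, score in % of UMIs; y axis, % of gated nuclei), with the median dotted and the 90th percentile dashed. The 2-month scores form 1 hump around 0.766%, and the 12-month median of 0.384% sits far below its 90th percentile of 1.50%.

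Each of the 4 genes contributed. The median high nucleus held 41, 64 and 81 score UMIs at 2, 12 and 24 months and the median low nucleus held 16, 7 and 14. Acaca supplied 68.1, 62.6 and 54.4% of the score UMIs of all gated nuclei, so it weighed most in the ranking. Of the high nuclei, 63.3, 78.7 and 67.5% were also in the top decile for Acaca alone and 26.5, 46.0 and 30.3% in the top decile for Fasn alone. Fasn was seen in 87.2, 98.7 and 99.5% of high and 53.8, 30.0 and 70.0% of low nuclei. Acly was seen in 81.0, 89.2 and 100% and 53.1, 26.5 and 65.2%. These values follow from the ranking and describe it.

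The high nuclei carried adipocyte transcripts. The summed level of 13 adipocyte markers, Adipoq, Plin1, Lipe and Pparg among them, was 14707, 18593 and 15376 CPM (UMI counts scaled to a common library total, here without the score genes) in high and 14538, 17186 and 18588 CPM in low nuclei, a ratio of 1.01, 1.08 and 0.827. Barcodes of the same depth that failed the gene gate, 151, 347 and 254 of them, held 9898, 8790.1 and 6035 CPM of the same markers. They also held 4521, 2054 and 2442 CPM of the 4 score genes, against 14669, 18598 and 21004 CPM in high and 5408, 2139 and 4235 CPM in low nuclei, each as CPM over all UMIs. The low nuclei at 12 months were thus near the level of the barcodes that failed the gate. High and low nuclei differed little in depth, with medians of 2851, 3521 and 3940.5 and 2800, 3511 and 3575 UMIs. The libraries share 20, 28 and 24 barcode sequences pairwise and none across all 3. At 24 months 4210 of 10000 barcodes fell under 2000 UMIs, and 36.6% of that library's barcodes entered the ranking, against 63.3% and 60.9% at 2 and 12 months.

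Markers of other cell types were low in both groups and mostly lower in the high nuclei. The endothelial, fibroblast, macrophage and pericyte lists include the genes of the gate, so their low sums were partly fixed by the gate. Fibroblast and progenitor markers summed to 107, 57.9 and 37.5 CPM in high and 139, 131 and 191 CPM in low nuclei, and Dpp4 was at 0 in the high nuclei of every library. Pericyte and smooth muscle markers summed to 33.5, 22.6 and 16.0 CPM and 74.97, 48.5 and 40.3 CPM. For endothelial markers the sums were 38.0, 24.4 and 22.2 CPM and 59.0, 45.5 and 25.3 CPM, and for macrophage markers 41.6, 22.2 and 15.3 CPM and 45.5, 47.6 and 44.6 CPM. Skeletal muscle markers summed to 4.06, 4.07 and 5.55 CPM and 98.998, 39.9 and 60.1 CPM, with Ckm and Ryr1 at 0 in the high nuclei of all 3 libraries. Ttn alone held 739, 287 and 274 of the 960, 446 and 408 UMIs of the muscle markers in low nuclei. Lymphocyte markers were at 3.55, 4.97 and 2.08 CPM and 4.33, 11.2 and 15.2 CPM. Their part in the results below was not tested, apart from the counts with a stricter gate that are given beside the lower genes.

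High and low nuclei were then compared gene by gene within each library, on summed counts, with the 4 score genes taken out of the total. Levels are CPM over that reduced total, and ratios are high over low nuclei. A gene was measured with at least 20 UMIs over both groups and at least 20 CPM in 1 of them in every library. Values in parentheses are exact 95% intervals for counting error only and do not cover differences between animals. Of 5614 genes measured, 847 (15.1%) were higher in high nuclei in all 3 libraries and 1206 (21.5%) were lower in all 3. By at least 1.5-fold, 18 genes (0.321%) were higher in all 3 libraries and 27 (0.481%) were lower. The minimum shaped these counts, since a gene could enter through the group where it was high. Of the 18, 10 reached 20 CPM in both groups of every library, and Prune2 and Als2cl did so in high nuclei alone throughout. Of the 27, 4 reached it in both groups of every library, and 23 passed through low nuclei alone in at least 1 library, so the counts are given as a description. The median log2 ratio over all measured genes was -0.01, -0.02 and -0.04. The 2-month library, whose scores spread least, set these counts: only 27 genes stood 1.5-fold higher there, against 287 at 12 and 209 at 24 months. Without it, 122 genes were 1.5-fold higher and 160 were 1.5-fold lower in both older libraries. Since the nuclei were ranked on counts of the same libraries, these ratios describe the high nuclei and no p-value is attached to them.

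Each of the 4 genes was higher in the high nuclei when judged on nuclei ranked without it. With Acly left out of the score, it stood at 633, 930.2 and 2918 CPM in high and 313, 96.9 and 469.7 CPM in low nuclei at 2, 12 and 24 months. Its ratios were 2.02 (1.89 to 2.16), 9.60 (8.92 to 10.3) and 6.21 (5.93 to 6.51). Fasn, left out in its turn, gave 1.99 (1.87 to 2.12), 12.1 (11.3 to 12.9) and 3.52 (3.35 to 3.69). Acaca gave 1.34 (1.31 to 1.36), 5.36 (5.25 to 5.46) and 3.11 (3.04 to 3.19). Elovl6 gave 1.499 (1.45 to 1.55), 2.16 (2.09 to 2.23) and 2.56 (2.46 to 2.66). All 12 ratios were above 1 with intervals clear of 1, and 10 of 12 reached 1.5. The 2-month ratio was the smallest for every gene, and the 12-month ratio was the largest except for Elovl6. In shallower nuclei of 200 to 2000 UMIs the 24-month ratios were smaller, at 1.84, 1.48, 1.30 and 1.50 for Acly, Fasn, Acaca and Elovl6.

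**Figure D2:**
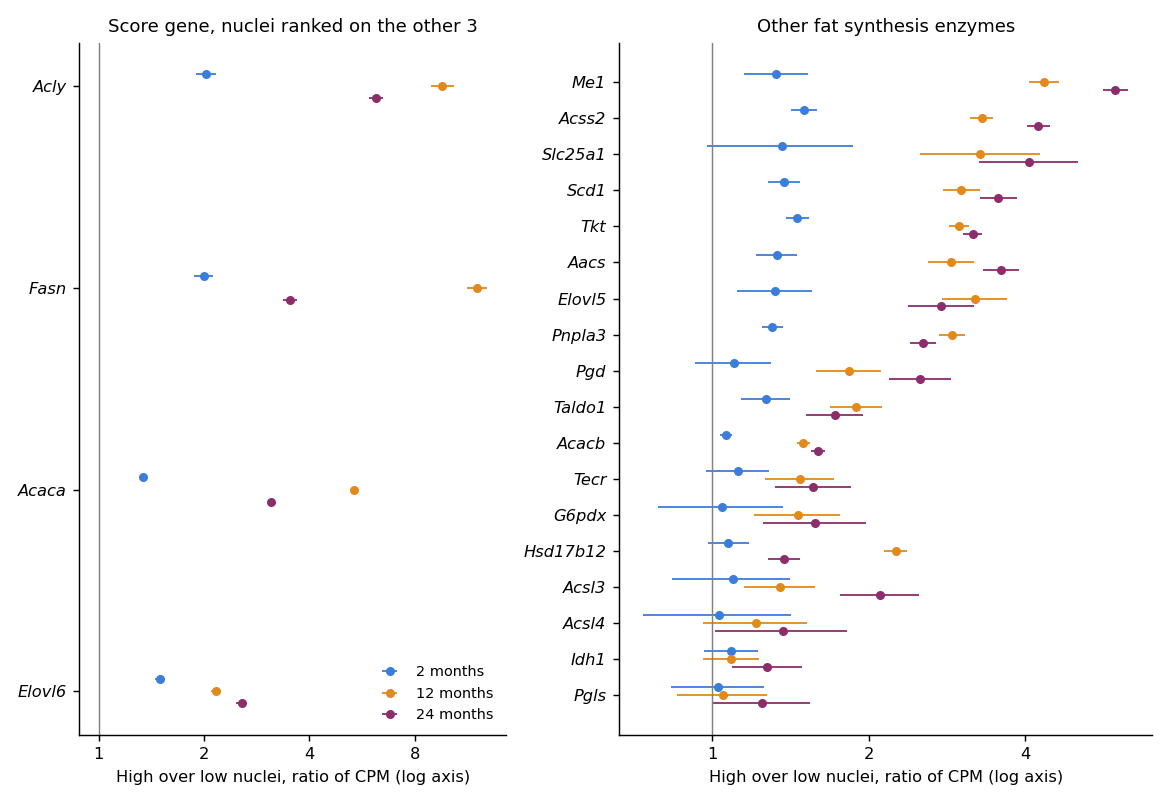
Ratio of CPM in high over low nuclei (log axis) for each score gene with nuclei ranked on the other 3 (left) and for the 18 other fat synthesis enzymes measured (right), by library, with exact 95% counting intervals. All points lie above 1, and Me1 reaches 5.97 at 24 months.

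Enzymes of fat synthesis that had no part in the score were higher in the high nuclei as well. Of 23 listed, 18 were measured and those 18 were higher in all 3 libraries, against 15.1% of all measured genes. The list, which also holds the lipid droplet protein Pnpla3, was drawn up with earlier results of these data known. Its count is therefore a description and no independent support. The median log2 ratios were 0.25, 1.05 and 1.20 at 2, 12 and 24 months. The 24-month median was 0.43 in shallower nuclei of 200 to 2000 UMIs. Of the 18, 17 reached the 20 CPM minimum in both groups of every library, and Slc25a1 passed through the high nuclei alone at 2 and 12 months. Scd2, Elovl1, Fads1, Fads2 and Slc25a10 were too low to be measured. Malic enzyme (Me1), a source of NADPH, stood at 126, 737 and 1934 CPM in high and 94.976, 169 and 324 CPM in low nuclei. The groups differed most at 24 months, with ratios of 1.33 (1.15 to 1.53), 4.36 (4.07 to 4.66) and 5.97 (5.65 to 6.32). Acss2, which makes acetyl-CoA from acetate, stood at 799, 1077 and 2014 CPM against 531, 326 and 474 CPM. Its ratios were 1.50 (1.42 to 1.59), 3.30 (3.13 to 3.48) and 4.25 (4.04 to 4.47). It was the 1 gene of the 18 that reached 1.5-fold in every library, and it fell short of that in 5 of 9 alternatives. Of the 9, 1 left the nuclei unchanged. The mitochondrial citrate carrier Slc25a1 was at 25.9, 43.4 and 108 CPM against 19.0, 13.2 and 26.6 CPM, and its 2-month ratio of 1.36 (0.980 to 1.87) had an interval that reached below 1.

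The desaturase Scd1, which makes oleate, stood at 503, 420.1 and 687 CPM in high and 366, 139 and 193 CPM in low nuclei, with ratios of 1.37, 3.02 and 3.56. Transketolase (Tkt), of the pentose phosphate pathway, followed at 1.46, 2.99 and 3.17, the acetoacetyl-CoA synthetase Aacs at 1.33, 2.89 and 3.59, the elongase Elovl5 at 1.32, 3.20 and 2.76 and the lipid droplet protein Pnpla3 at 1.31, 2.90 and 2.55. Acacb, the carboxylase whose malonyl-CoA restrains fatty acid entry into mitochondria, differed less, at 1.06 (1.04 to 1.09), 1.50 (1.46 to 1.54) and 1.60 (1.55 to 1.65). Idh1, a source of NADPH, and the pentose phosphate enzyme Pgls were nearest to 1, at 1.09, 1.09 and 1.28 for Idh1 and 1.03, 1.05 and 1.25 for Pgls. The enzymes thus spanned a wide range, and in the plot of ratios by gene the 2-month values lie closest to 1 for 17 of the 18.

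Regulators of the pathway had few shared directions. Of 19 listed, 15 were measured, 3 (20%) were higher and 4 (26.7%) were lower in all 3 libraries, near the 15.1% and 21.5% of all measured genes, and the median log2 ratios were -0.04, 0.10 and -0.11. The 3 higher ones were Mlxipl, Thrsp and Insig1. Mlxipl, which encodes the glucose-responsive factor ChREBP, stood at 2272, 2415 and 3618 CPM in high and 1889, 1288 and 1482 CPM in low nuclei, with ratios of 1.20 (1.16 to 1.24), 1.88 (1.82 to 1.93) and 2.44 (2.36 to 2.53). Thrsp (Spot14), a lipogenic protein under thyroid hormone control, gave 1.29 (1.18 to 1.41), 1.80 (1.64 to 1.97) and 2.10 (1.93 to 2.29). Insig1, which holds SREBP proteins in the endoplasmic reticulum, gave 1.13 (0.947 to 1.35), 5.12 (4.36 to 6.01) and 2.21 (1.89 to 2.58), and its largest value was at 12 months. Srebf1 itself had no shared direction, at 1.22 (1.03 to 1.44), 0.868 (0.759 to 0.989) and 1.44 (1.25 to 1.66). The 4 lower ones, Scap, Nr1h3 (LXR alpha), Thra and Thrb, had ratios between 0.732 and 0.975.

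The 18 genes at least 1.5-fold higher in all 3 libraries were Acot11, Acsl5, Acss2, Adcy10, Als2cl, Bhlhe40, Dixdc1, Fam57b, Fhdc1, Gfod1, Kit, Pmvk, Prune2, Pygl, Sorcs2, Sorl1, Ttc25 and Zfp189. Acsl5, a long-chain acyl-CoA synthetase at chr19:55251938-55297720, stood at 177, 771 and 596 CPM in high and 78.2, 80.6 and 99.1 CPM in low nuclei. Its ratios were 2.27 (1.99 to 2.57), 9.57 (8.83 to 10.4) and 6.01 (5.43 to 6.66). The thioesterase Acot11, which cleaves fatty acyl-CoA, stood at 799, 1069 and 1392 CPM against 504, 332 and 522 CPM, with ratios of 1.58, 3.22 and 2.66. Acsl1, the synthetase typical of adipocytes, had ratios of 0.974, 1.18 and 0.707 and no shared direction.

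Pygl, the liver form of glycogen phosphorylase, stood at 821, 813 and 914 CPM in high and 513, 200.4 and 289.7 CPM in low nuclei, with ratios of 1.60 (1.51 to 1.69), 4.05 (3.81 to 4.32) and 3.16 (2.94 to 3.39). Prune2, first in the ranking by the library nearest to 1, passed the minimum through the high nuclei alone, at 22.3, 31.7 and 59.7 CPM against 7.73, 3.40 and 5.30 CPM, with ratios of 2.89 (1.94 to 4.24), 9.31 (6.19 to 14.2) and 11.3 (7.55 to 17.1). It no longer reached 1.5-fold in all 3 libraries with nuclei thinned to 2000 UMIs, with nuclei of 3000 to 4000 UMIs or with those of 200 to 2000 UMIs. The receptors Sorcs2 and Sorl1 of the sortilin family gave 1.72, 7.48 and 7.72 and 1.59, 6.54 and 5.05. Dixdc1 gave 2.25, 7.36 and 7.61, Gfod1 1.76, 2.96 and 7.04, and Adcy10, the soluble adenylyl cyclase, 1.67, 3.63 and 4.78. Bhlhe40, a repressor in the clock network, gave 1.61, 3.03 and 1.78. Als2cl gave 1.93, 10.0 and 7.54, Fam57b 1.65, 6.06 and 3.49 and Fhdc1 1.83, 2.81 and 2.11. In shallower nuclei of 200 to 2000 UMIs, 8 of the 18 were again at least 1.5-fold higher in all 3 libraries, namely Acot11, Acsl5, Adcy10, Fam57b, Pygl, Sorcs2, Sorl1 and Ttc25, and the median log2 ratio of Fhdc1 turned to -0.02. Zfp189 and Acss2 were nearest to the 1.5-fold limit, with 2-month ratios of 1.53 and 1.50.

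**Figure D3:**
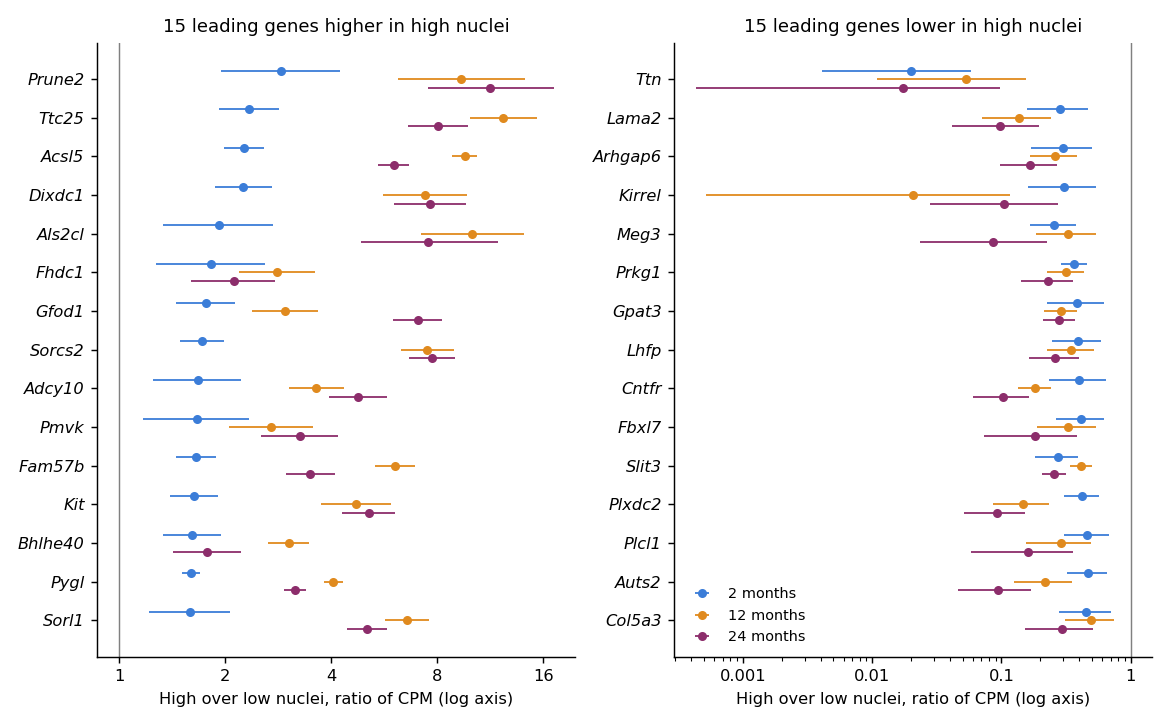
Ratio of CPM in high over low nuclei (log axes) for the 15 genes with the largest shared ratio above 1 (left) and below 1 (right), ranked by the library nearest to 1, with exact 95% counting intervals, by library. For 11 of the 15 higher genes the 2-month ratio is below 2, and Ttn lies lowest on the right with 3, 3 and 1 UMIs in high nuclei at 2, 12 and 24 months.

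Kit, a receptor tyrosine kinase that also marks mast cells, stood at 109, 67.8 and 199 CPM in high and 66.4, 14.4 and 38.9 CPM in low nuclei, with ratios of 1.63 (1.39 to 1.91), 4.71 (3.75 to 5.92) and 5.11 (4.31 to 6.06). The other 4 mast cell markers, Cpa3, Mcpt4, Tpsb2 and Fcer1a, summed to 4, 9 and 3 UMIs in the high and 21, 13 and 6 UMIs in the low nuclei, with ratios of CPM of 0.937 (0.234 to 2.78), 3.50 (1.32 to 8.85) and 2.36 (0.382 to 11.04). Kit itself had 214, 150 and 286 UMIs in the high nuclei, and Tpsb2 and Fcer1a were at 0 in all 3 libraries.

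Of the leading genes, Ttc25 lies next to a score gene. It stands 17.6 kb from Acly on chromosome 11, on the opposite strand, at chr11:100545607-100572568. Ttc25 was at 78.1, 133 and 198 CPM in high and 33.4, 10.8 and 24.6 CPM in low nuclei, with ratios of 2.34 (1.92 to 2.84), 12.3 (9.91 to 15.3) and 8.05 (6.62 to 9.80). Within 100 kb of the 4 score genes 7 other genes were measured, and Ttc25 was the 1 of them that reached 1.5-fold in every library. Of all 5614 measured genes 18 (0.321%) did so. At 12 months Ttc25 passed the 20 CPM minimum through the high nuclei alone. Whether its place beside Acly plays a part was not tested. Ccdc57, which ends 1.98 kb before the start of Fasn on the same strand, gave 1.17 (0.994 to 1.37), 5.16 (4.38 to 6.08) and 3.06 (2.55 to 3.66) and was named after its values were seen. The other 5, Dnajc7, Aspscr1, Synrg, Tada2a and Aatf, had ratios between 0.831 and 1.30. Tada2a, which starts 0.0720 kb from Acaca, gave 1.06, 1.14 and 1.15.

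Genes that bring glucose carbon to acetyl-CoA leaned the same way. Of 32 listed genes of glycolysis and glucose uptake 27 were measured, and none reached 1.5-fold in every library. In all 3 libraries 18 (66.7%) were higher and 1 (3.70%), Ldhb, was lower, against 15.1% and 21.5% of all measured genes. The median log2 ratios were 0.18, 0.31 and 0.55. Hexokinase 2 (Hk2), which traps glucose in the cell, stood at 483, 892 and 2018 CPM in high and 328, 337 and 848 CPM in low nuclei, with ratios of 1.47 (1.37 to 1.59), 2.65 (2.51 to 2.80) and 2.38 (2.28 to 2.49). Enolase (Eno1) gave 1.28, 2.43 and 2.02, pyruvate kinase (Pkm) 1.12, 1.81 and 1.81, and the mitochondrial pyruvate carrier subunit Mpc1 1.19, 1.46 and 1.87. The glucose transporter Slc2a4 (GLUT4) had no shared direction, at 0.960 (0.783 to 1.17), 1.25 (1.07 to 1.45) and 1.82 (1.55 to 2.13). Pdk1, a kinase that shuts off pyruvate dehydrogenase, was higher at 12 and 24 months and level at 2 months, at 0.996 (0.829 to 1.19), 3.17 (2.44 to 4.10) and 2.46 (1.86 to 3.24).

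Cholesterol synthesis was mostly too low to be measured, with 7 of 22 genes above the minimum. Against 15.1% and 21.5% of all measured genes, 4 of these (57.1%) were higher and none was lower in all 3 libraries. They were Pmvk (phosphomevalonate kinase) at 1.66 (1.17 to 2.33), 2.70 (2.05 to 3.55) and 3.26 (2.53 to 4.19), Sc5d at 1.45, 2.53 and 2.63, Nsdhl at 1.19, 2.45 and 2.63 and Fdft1 (squalene synthase) at 1.17, 2.55 and 2.87. Hmgcs1, Dhcr7 and Acat2 had no shared direction. Pmvk passed the 20 CPM minimum through the high nuclei alone at 2 and 12 months. It stood there at 23.8 and 38.0 CPM in high against 14.3 and 14.0 CPM in low nuclei, so the share of 57.1% is a description.

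Of 23 measured insulin signalling genes 6 (26.1%) were higher and 5 (21.7%) lower in all 3 libraries, against 15.1% and 21.5% of all measured genes. The kinases Mtor and Gsk3b gave 1.07, 1.52 and 1.61 and 1.23, 1.24 and 1.82, and the insulin receptor substrate Irs1 1.07 (0.972 to 1.18), 2.30 (2.13 to 2.48) and 1.12 (1.01 to 1.25). Grb14, which inhibits the insulin receptor, gave 0.817, 0.396 and 0.692 and the factor Foxo3 0.775, 0.734 and 0.745. The insulin receptor (Insr) stayed near 1, at 0.978, 1.09 and 0.976.

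Triglyceride synthesis and droplet genes went in both directions, with median log2 ratios of -0.10, 0.09 and -0.03. Of 22 measured, 5 (22.7%) were higher and 8 (36.4%) lower in all 3 libraries, against 15.1% and 21.5% of all measured genes. Gpat3, an acyltransferase of the first step, was 1 of the 27 genes at least 1.5-fold lower in every library. It stood at 9.13, 22.6 and 38.2 CPM in high and 23.6, 77.6 and 136 CPM in low nuclei, with ratios of 0.387 (0.225 to 0.625), 0.291 (0.214 to 0.387) and 0.281 (0.210 to 0.369). Other enzymes of the same route were higher, such as Gpd1, which makes glycerol 3-phosphate, at 1.20, 1.34 and 1.43, Agpat2 at 1.14, 1.37 and 1.59 and Lpin1 at 1.19, 1.55 and 1.58. Dgat2, the acyltransferase of the last step, was level at 2 months and lower in the older libraries. It stood at 794, 205 and 622 CPM against 800.2, 947 and 1101 CPM, with ratios of 0.992 (0.939 to 1.05), 0.216 (0.196 to 0.238) and 0.565 (0.527 to 0.606). G0s2, an inhibitor of the lipase ATGL, had the same order of values, at 1.02 (0.831 to 1.24), 0.233 (0.194 to 0.278) and 0.565 (0.476 to 0.667). Pck1 gave 0.839, 0.571 and 0.764 and the droplet protein Cidec 0.904, 0.636 and 0.774.

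The counts of this paragraph stand beside 15.1% of all measured genes higher and 21.5% lower in all 3 libraries. Of 12 lipolysis genes 2 (16.7%) were lower and none higher in all 3 libraries. Of 22 measured oxidation genes 3 (13.6%) were higher and 4 (18.2%) lower, near the shares of all genes. Oxidation had median log2 ratios of -0.07, 0.09 and -0.01, and Acot11 was its 1 member past 1.5-fold. Cpt1b, which takes fatty acids into mitochondria, gave 0.910, 0.891 and 0.771. Of 11 measured genes of fatty acid uptake and handling, 2 (18.2%) were higher in all 3 libraries, Acsl5 among them. Fabp3, Fabp4, Slc27a2 and Angptl4 (36.4%) were lower. The 36 measured nuclear genes of oxidative phosphorylation stood near 1, with median log2 ratios of -0.01, 0.08 and 0.11. Of these, 7 (19.4%) were higher and 1 (2.78%) lower in all 3. The tricarboxylic acid cycle had 3 genes higher and 3 lower of 16 (18.75% each), near the shares of all genes. Idh2, the mitochondrial isocitrate dehydrogenase, was the lowest at 0.837, 0.548 and 0.595. Branched-chain amino acid breakdown had 1 gene (5.56%) higher and 7 (38.9%) lower of 18.

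No thermogenic gene measured was higher in the high nuclei of all 3 libraries. Of 28 listed genes of thermogenesis and adrenergic signalling, 18 were measured, 5 (27.8%) were lower in all 3 libraries and 13 had no shared direction, where 15.1% of all measured genes were higher and 21.5% lower. Ucp1, the uncoupling protein of brown fat, stood at 442, 539.9 and 1729 CPM in high and 457, 717 and 1565 CPM in low nuclei, with ratios of 0.967 (0.898 to 1.04), 0.753 (0.708 to 0.800) and 1.10 (1.06 to 1.15). It was thus level at 2, lower at 12 and slightly higher at 24 months. Dio2, which activates thyroid hormone, was at least 1.5-fold lower in every library, at 11.2, 89.1 and 159 CPM against 25.7, 167 and 264 CPM, with ratios of 0.435 (0.268 to 0.673), 0.533 (0.458 to 0.617) and 0.602 (0.522 to 0.691). In nuclei of 200 to 2000 UMIs the median log2 ratio of Dio2 turned to 0.37. The nuclear receptors Esrrg and Ppara gave 0.791, 0.452 and 0.760 and 0.779, 0.918 and 0.572, and Ppargc1a gave 0.837, 0.928 and 0.770. Elovl3, an elongase induced by cold, was under the minimum in the 2-month library and stood at 5.07, 47.5 and 81.9 CPM in high and 5.36, 20.3 and 30.3 CPM in low nuclei.

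**Figure D4:**
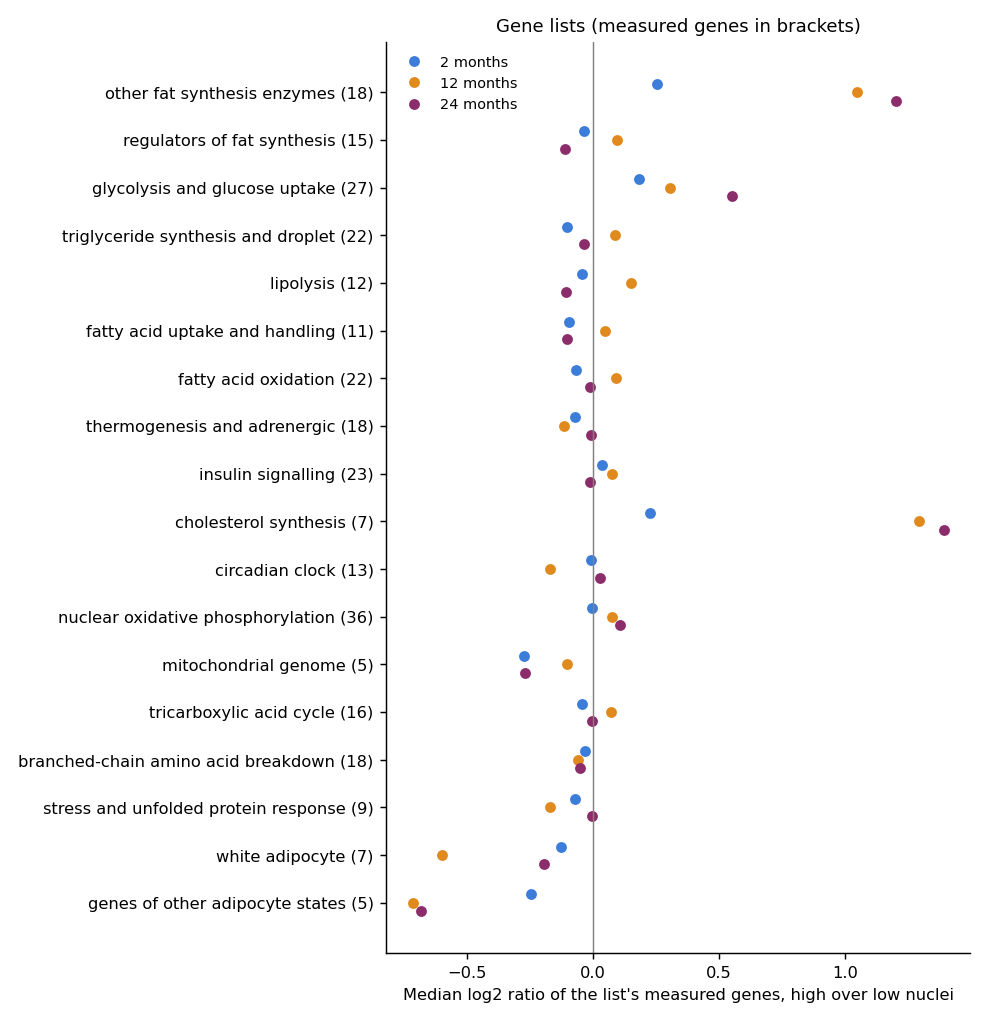
Median log2 ratio of CPM in high over low nuclei (x axis) for each gene list with at least 5 measured genes, by library, with the number of measured genes in brackets. The other fat synthesis enzymes and cholesterol synthesis lie above 1 at 12 and 24 months, and glycolysis and glucose uptake above 0 in all 3 libraries. The white adipocyte genes and the genes of other adipocyte states lie below 0 in all 3 libraries. The lists for the mitochondrial genome, stress, thermogenesis and branched-chain amino acid breakdown do so too. The remaining lists lie on both sides of 0.

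The 27 genes at least 1.5-fold lower in all 3 libraries were Abca8a, Adtrp, Apbb2, App, Arhgap6, Auts2, Cntfr, Col5a3, Dio2, Dmd, Fbxl7, Gpat3, Gramd1b, Hspg2, Kirrel, Lama2, Lhfp, Meg3, Nnat, Pcdh7, Plcl1, Plxdc2, Pnrc1, Prkg1, Slit3, Ttn and Zfpm2. Lama2, a laminin of basement membranes, stood at 8.12, 5.43 and 5.55 CPM in high and 28.8, 39.4 and 57.1 CPM in low nuclei. Its ratios were 0.282 (0.159 to 0.466), 0.138 (0.0705 to 0.243) and 0.0972 (0.0417 to 0.193). Ttn, the giant protein of muscle, stood at 1.52, 1.36 and 0.694 CPM against 76.2, 25.7 and 40.3 CPM. Meg3, a noncoding RNA, gave 0.256, 0.326 and 0.0865, the guidance ligand Slit3 0.273, 0.414 and 0.257, the kinase Prkg1 0.366, 0.317 and 0.230 and the cytokine receptor Cntfr 0.401, 0.182 and 0.103. As given above, fibroblast, pericyte and muscle markers were lower in the same nuclei, and Ttn itself supplied most of the muscle marker UMIs in low nuclei. With nuclei further limited to fewer than 3 UMIs over the markers of 6 other cell types, 13 genes were at least 1.5-fold lower in all 3, of which 11 were among the 27, Gpat3, Dio2, Cntfr and Slit3 included. Lama2, Ttn, Meg3 and Prkg1 no longer were, and Ttn is itself among the markers limited there. Prkg1 and Col5a3 then changed direction, with median log2 ratios of 0.01 and 0.13. Of the 18 higher genes, 16 were again at least 1.5-fold higher in all 3. In nuclei with no gate UMIs, 11 of the 27 were again at least 1.5-fold lower in all 3, without Lama2, Ttn and Meg3.

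The shape of the changes along the ranking differed by library and by gene. In the 24-month library Me1 went from 214 (189.8 to 239) CPM in the lowest decile of nuclei by score to 525 CPM in the fifth and 1938 (1866 to 2011) CPM in the highest. At 12 months it stayed between 159.7 and 205 CPM over the first 6 deciles and then went to 397 CPM in the eighth and 738 CPM in the highest. At 2 months it stood at 78.3 CPM in the lowest and 127 CPM in the highest decile. From the third to the ninth it went up and down between 91.9 and 110 CPM. Acsl5 at 12 months stood at 121 CPM in the sixth decile and 313 CPM in the seventh, and ended at 771 (735 to 809) CPM. Dgat2 moved the other way over the same deciles, from 849.5 CPM in the sixth to 253 CPM in the eighth and 205 (187 to 225) CPM in the highest. At 24 months Dgat2 declined evenly, from 1220.2 (1162 to 1280.1) to 621 (580.5 to 663) CPM. Mlxipl stood at 1639, 1158 and 1109 CPM in the lowest decile and at 2275, 2416 and 3624 CPM in the highest. At 12 months the score gene Elovl6 stood at 2077, 1951 and 1895 CPM in the sixth, seventh and eighth deciles. Fasn stood at 226, 607 and 1020 CPM in the same deciles, so these score genes did not climb together there.

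**Figure D5:**
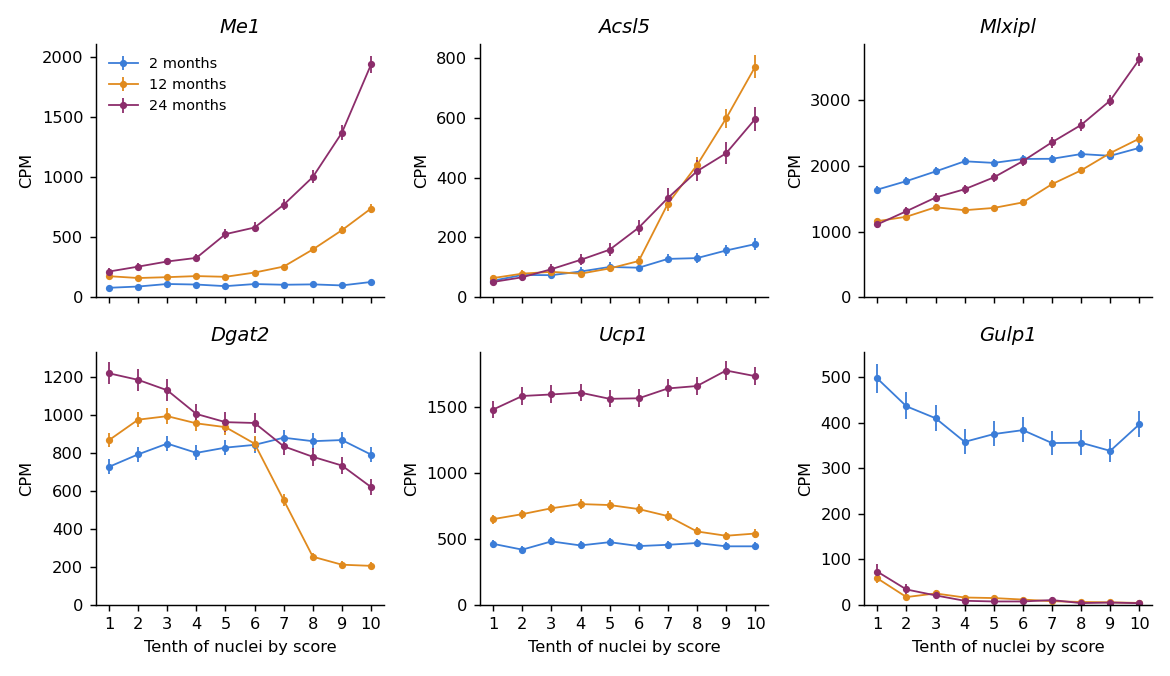
Level of 6 genes outside the score (y axis, CPM over all UMIs but those of the score genes) in each decile of gated nuclei ranked by score (x axis, 1 is the lowest), by library, with exact 95% Poisson intervals. At 12 months Dgat2 falls from 849.5 CPM in the sixth decile to 253 CPM in the eighth, where Acsl5 climbs.

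Genes that mark other adipocyte states were set beside the score. Pmepa1 was lower in high nuclei in all 3 libraries, at 112, 229 and 487 CPM against 157, 609 and 877 CPM, the opposite of Acsl5. Gulp1 was level at 2 months, where it was plentiful, and lower in the older libraries, at 0.959 (0.887 to 1.04), 0.156 (0.0708 to 0.301) and 0.121 (0.0388 to 0.287), with 785, 9 and 5 UMIs in high nuclei. Fbxo31 gave 0.786, 0.609 and 0.622. The stress genes Gdf15 and Hmox1 had 0, 3 and 2 and 0, 8 and 5 UMIs in high nuclei, too few to compare. Nr4a1, an immediate early gene, stood at 25.4, 34.8 and 384 CPM in high and 50.9, 35.7 and 461 CPM in low nuclei. Of 7 measured genes of a white adipocyte list 5 (71.4%) were lower in all 3, against 21.5% of all measured genes. The 7 were Nnat, Adam12, Npr3, Nrip1, Fabp4, Adipoq and Car3. Adipoq and Fabp4 are also among the general adipocyte markers summed above, so the count is not particular to white adipocytes. Car3 gave 0.915, 0.354 and 0.235 at levels of 645, 194 and 340.2 CPM in high nuclei.

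Because the percentile fixes the share of high nuclei within a library, a common limit was also applied at equal depth. Each gated nucleus was thinned to 2000 UMIs, and the 90th percentile of summed score UMIs at 2 months, 25 UMIs, was taken as the limit. In the 2-month library 11.4% (10.7 to 12.3%) of gated nuclei were at or above it. The share was 17.6% (16.7 to 18.6%) in the 12-month library and 29.5% (28.1 to 31.1%) in the 24-month library. Without thinning the shares were 10.0%, 17.4% and 29.3%. Barcodes that failed the gene gate gave 1.99%, 0.576% and 0 of 254, which allows a share of up to 1.18% (3 of 254). The median thinned nucleus held 15, 8 and 17 score UMIs, so the 12-month library was lowest at its middle while its share above the limit exceeded that of the 2-month library. The order of 2 and 12 months turned with the limit: at the 75th percentile of the 2-month nuclei the shares were 27.8%, 25.2% and 41.8%. The 24-month library had the largest share of gated nuclei at every limit tried. Only 36.6% of its barcodes were gated, against 63.3% and 60.9% at 2 and 12 months. At the limit of 25 UMIs the counts were 724, 1074 and 1080 nuclei at 2, 12 and 24 months, so 12 and 24 months differed little in number. With 1 library per age, age and library cannot be told apart.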

How the data were processed

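Single-nucleus RNA-seq of iBAT was deposited by the authors as UMI counts per gene and barcode (1 matrix per age, 32285 genes), made with Cell Ranger 7.0.1 on mm10 per the file headers and the submitters' processing notes; the study's methods name another version of Cell Ranger. Whether intronic reads were counted was not given in the sources used here. Each library was forced to 10000 barcodes by the authors and summed to between 28977002 and 45819738 UMIs.

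Barcodes with 2000 to 6000 UMIs and fewer than 3 gate UMIs were ranked by score within each library. The authors' own filter kept 200 to 2000 UMIs, which was run as an alternative. The gate removes nuclei of other types and some doublets, no doublet caller was run, and no cell type annotation was used. Counts were summed over high and over low nuclei and divided by the total without the score genes. Ratios have exact conditional binomial intervals, levels exact Poisson intervals and shares exact binomial intervals (Clopper-Pearson), all at 95% and for counting error only. With 1 library per age, and nuclei ranked on the counts they were compared on, no test was made.

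The nuclei, the gene lists and the limits were chosen with earlier results of these data known. Named genes are the score genes, the members of the lists, and 15 genes at either end of the ranking by shared ratio, which uses the library nearest to 1; mitochondrial, predicted and gate genes were left out of that ranking. The other genes of the 18 and 27 past 1.5-fold and the neighbours of score genes are named in addition. Gene positions are from the GENCODE M21 annotation, matched by gene ID, and promoter sequences from RefSeq (GRCm38.p6). Alternatives changed the depth window, the gate, the percentiles, the minimum counts, the fold limit, the scaling and the libraries. Python 3.11.15, numpy 2.4.6, scipy 1.17.1 and pandas 2.3.3 were used, and the comparison was tested on simulated data. A few genes of the lists are not reported here.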

Additional observations from a re-analysis of the deposited data

Results flagged for a closer look

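Irs2, which encodes an insulin receptor substrate, went in opposite directions in the older libraries. In high nuclei it stood at 118, 81.4 and 67.3 CPM at 2, 12 and 24 months and in low nuclei at 154, 46.1 and 150.2 CPM. The ratios were 0.763 (0.662 to 0.877), 1.77 (1.48 to 2.10) and 0.448 (0.360 to 0.553), above 1 at 12 months and below 1 at 2 and 24 months with intervals for counting error clear of 1. With 1 library per age the difference between ages was not tested.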

How the results depend on the processing

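With 1 library per age the values have counting error only, and which animals a library holds is not given. No paired analysis was possible because each age has 1 library and the labels give no shared replicate numbers. Depth limits the list of genes that can be compared, since 5614 of 32285 genes passed the minimum. The 18 higher and 27 lower genes became 36 and 55 with the 95th against the 25th percentile, 11 and 6 with at least 100 UMIs and 50 CPM, 146 and 336 with at least 1 UMI in both groups, 4 and 15 at 2-fold, and 122 and 160 without the 2-month library. The lower genes also became 163 under the authors' filter of 200 to 2000 UMIs, 11 with no gate UMIs and, in an alternative added after seeing the data, 13 with fewer than 3 UMIs of markers of 6 other cell types. Without the 12-month library the counts were 20 and 38, and without the 24-month library 19 and 34. The median log2 ratio of the other fat synthesis enzymes was 0.47 in nuclei of 3000 to 4000 UMIs and 0.43 with the 95th against the 25th percentile at 2 months, and 0.43 under the authors' filter at 24 months. The shares above a common limit were 27.8, 25.2 and 41.8% at the 75th percentile of 2 months, 1.07, 5.47 and 10.6% at the 90th percentile of 24 months, 10.0% at 2 months without thinning, and 18.8% at 12 months in nuclei of 3000 to 4000 UMIs. Between 8 and 12 of the 12 ratios of left-out score genes reached 1.5 under 9 alternatives, and none turned below 1. Of 340 values of 34 named genes under 10 alternatives, 264 stayed within the counting interval of the reported ratio, 72 moved outside it in the same direction and 4 reversed: Fhdc1 at -0.019 and Dio2 at 0.37 under the authors' filter, and Prkg1 at 0.014 and Col5a3 at 0.13 with the markers of 6 other cell types limited. The cause was not tested. Requiring 3 adipocyte marker UMIs removed no nucleus. This was 1 of the 10 alternatives for named genes and of the 9 for left-out score genes. Its values could not differ from the reported ones, and they are counted among those that stayed within the interval.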

Other observations

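Among genes of the circadian clock, 13 of 19 listed were measured, and Bhlhe40 was higher and Hlf lower in the high nuclei of all 3 libraries. That is 7.69% in each direction, against 15.1% and 21.5% of all measured genes. The other clock genes had no shared direction, and the 12-month library stood apart for several of them. Per2, a core repressor of the clock, had ratios of 0.909 (0.635 to 1.27), 0.147 (0.0915 to 0.224) and 1.02 (0.759 to 1.35) at 2, 12 and 24 months, Per3 1.25, 0.387 and 0.978, Cry2 1.11, 0.456 and 1.21 and the output factor Tef 1.11, 0.448 and 0.934. Arntl, which encodes the activator BMAL1, gave 0.767 (0.636 to 0.920), 2.25 (1.89 to 2.67) and 1.35 (1.03 to 1.74). At 12 months Per2 stood at 9.95 CPM in high and 67.7 CPM in low nuclei. The time of day of collection was not given in the sources used here, and the difference between libraries was not tested.

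The 5 measured transcripts of the mitochondrial genome, of 13 listed, were lower in high nuclei in all 3 libraries, against 21.5% of all measured genes. Their median log2 ratios were -0.27, -0.10 and -0.27. Mitochondrial transcripts made up 0.0228, 0.177 and 0.0143% of UMIs in high and 0.0268, 0.196 and 0.0183% in low nuclei. Of 9 measured genes of stress and the unfolded protein response, of 22 listed, 4 (44.4%) were lower and none higher in all 3. Of all measured genes 21.5% were lower and 15.1% higher. Ddit3 gave 0.884, 0.606 and 0.872 and Herpud1 0.969, 0.744 and 0.983. Of 22 immediate early and heat shock genes 2 were measured, and Nr4a2 gave 0.898, 1.52 and 1.40. Of a list of 14 genes drawn up for pyroptosis, no inflammasome, caspase or gasdermin gene was measured, and the 1 member measured was Stx4a, which encodes the membrane fusion protein syntaxin 4, at 0.842, 0.888 and 0.778. In the breakdown of branched-chain amino acids, the mitochondrial carrier Slc25a44 gave 0.969, 1.74 and 1.58, the aminotransferase Bcat2 1.0035, 0.595 and 0.615 and the methylmalonyl-CoA mutase Mmut 0.826, 0.807 and 0.819. Schwann cell markers summed to 134, 142 and 182 CPM in high and 124, 190.1 and 173 CPM in low nuclei, with Sox10 at 0 in the high nuclei of all 3 libraries. Lymphatic endothelial, mesothelial and neutrophil markers held at most 17 UMIs each in the high nuclei of any library, and red blood cell markers 12, 35 and 16 UMIs.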
